A study of Mus musculus with 40 samples.

Results

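The transcripts described here encode the enzymes that switch CDK1 and CDK2 on and off: the CDC25 phosphatases (*Cdc25a*, *Cdc25b*, *Cdc25c*), the inhibitory kinases (*Wee1*, *Pkmyt1*), the kinases themselves (*Cdk1*, *Cdk2*) and cyclin A2 (*Ccna2*). These genes were chosen by name and are 8 of the 55536 gene rows in the count tables. The RNA came from mouse embryonic stem cells (mESCs) that express Cas9. The knockouts of *Ccnc* are the clones D1, G2 and H5, those of *Cdk8* are B9, H4 and C8, and WT cells were sampled as 2 biological replicates. *Ccnc* encodes Cyclin C, the partner of the kinase CDK8 in the kinase module of the Mediator complex. Cells of every genotype were collected 4 h after addition of DMSO or of 900 nM AZD6738, an inhibitor of ATR (ATRi), and all were grown with serum and LIF, the cytokine that keeps these cells pluripotent. Each KO clone grew from a single cell after CRISPR editing, so that a clone is 1 cell line and its DMSO and ATRi libraries form a pair.

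WEE1 and PKMYT1 phosphorylate a threonine and a tyrosine in the ATP-binding loop of CDK1, and WEE1 phosphorylates the tyrosine of CDK2, which keeps the cyclin-bound kinases inactive. CDC25 phosphatases remove these phosphates, and loss of CDC25A is a known route to ATR inhibitor resistance. ATR acts through CHK1 to mark CDC25A for degradation and so delays entry into mitosis, and this control works on proteins, which poly(A) RNA does not measure. Embryonic stem cells divide quickly and are known for high CDC25A and CDK activity through most of the cycle.

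The inhibitory site is shown in the coding sequence of the substrates, since it is the point on which the kinases and phosphatases of this group act. The stretches come from the GENCODE M21 annotation of GRCm38, with the threonine and tyrosine codons (codons 14 and 15 in both) in capitals. The *Cdk1* stretch lies on the minus strand of chromosome 10 between 69346206 and 69350111, divided between exons 3 and 4, and the *Cdk2* stretch on the minus strand at chr10:128704765-128704806 in exon 1.
Cdk1: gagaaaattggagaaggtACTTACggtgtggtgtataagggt
Cdk2: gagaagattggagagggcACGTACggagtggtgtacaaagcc
Of these 42 bases 33 were identical between both genes.

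The phosphatase side is shown by the codons around the catalytic cysteine, in capitals, of the CDC25 genes for which a stretch is given. For *Cdc25a* this is codon 421, in exon 13 on the plus strand at chr9:109889792-109889830, and for *Cdc25b* codon 483, in exon 14 on the plus strand at chr2:131194710-131194748.
Cdc25a: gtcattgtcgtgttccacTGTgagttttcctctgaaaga
Cdc25b: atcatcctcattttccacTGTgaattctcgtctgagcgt
Both stretches shared 28 of 39 bases.

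The CRISPR guides that made the clones are printed because they define the genotypes. Each matched 1 exon of its target and was followed by an NGG motif, the *Ccnc* guide at chr4:21743295-21743314 in exon 9 of 12, on the strand opposite to the transcript, and the *Cdk8* guide at chr5:146292673-146292692 in exon 7 of 13, on the strand of the transcript.
Ccnc guide: ctaaagcgatcatgaacgga
Cdk8 guide: aatatttcactgtcgacaag

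Libraries were sequenced in 2 multiplexes, one holding the WT and *Ccnc* KO libraries and the other the same WT libraries with the *Cdk8* KO libraries, 10 libraries in each. The comparisons of both knockouts therefore share their WT controls. Library totals lay between 30899823 and 67274049 counts. The target transcripts were checked first: *Ccnc* fell to 4.24 to 7.40 CPM in *Ccnc* KO libraries from 43.6 to 45.1 CPM in the WT libraries used, and *Cdk8* stood at 52.3 to 64.5 CPM in *Cdk8* KO libraries against 71.2 to 78.6 CPM in WT (log2 fold change -0.35, edgeR adjusted p = 0.0112, and -0.27 with adjusted p = 0.491 without WT replicate 1). CPM are counts scaled to a fixed library total after TMM normalization. In *Ccnc* KO libraries *Cdk8* lay at 62.6 to 67.6 CPM, which overlaps the *Cdk8* KO range. The WT libraries used of that multiplex lay above, at 68.2 to 75.4 CPM (log2 fold change -0.12, edgeR adjusted p = 0.15). Such groups without overlap were found for 14.4% of all genes. WT replicate 2 under ATRi stood apart from the other libraries and was left out of the fits. Its *Cdk8* level of 57.7 CPM lay within the *Cdk8* KO range. That leaves 1 WT library under ATRi. All 8 markers of pluripotent stem cells exceeded 1 CPM in every group, with sums of 3542 to 5069 CPM. Of 5 fibroblast markers, *Lum* and *Dcn* stayed under 1 CPM in every group and *Col1a2* in the WT groups only. *Col1a1* and *Thy1* were not under 1 CPM in any group. The fibroblast list summed to between 3.86 CPM (WT) and 22.4 CPM (*Cdk8* KO).

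All 8 genes were expressed in every library and passed the expression filter, with 1182 to 30629 counts per library. Over the 18 library measurements used, the ratio of the highest to the lowest CPM was 1.15 for *Cdk1* and 1.32 for *Pkmyt1*, with the others between these. The coefficient of variation ranged from 4.01% for *Wee1* to 7.61% for *Pkmyt1*. The same WT library sequenced in both multiplexes differed by at most 5.70% for any of the 8 genes. The plot of CPM by library shows each value.

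**Figure D1:**
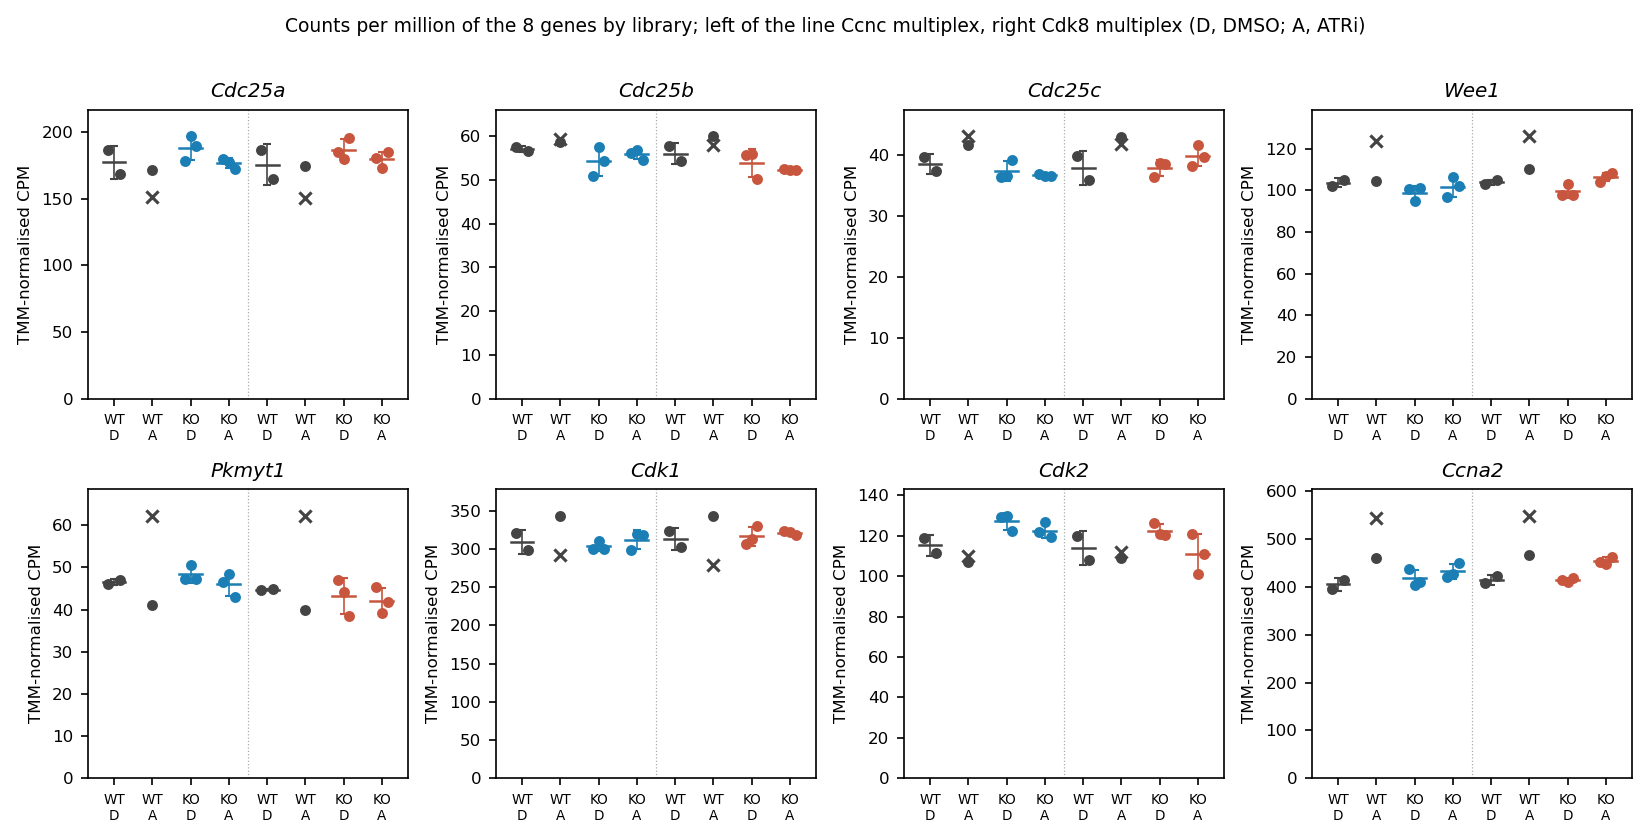
TMM-normalised CPM (vertical axes, from 0) of the 8 genes in each library, grouped by genotype and treatment (D, DMSO; A, ATRi; left of the dotted line the *Ccnc* multiplex, right the *Cdk8* multiplex). Points are libraries, horizontal lines means and error bars SD of groups with over 1 library, and crosses mark WT replicate 2 under ATRi, which reached 544.9 and 549.1 CPM for *Ccna2*.

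Levels were compared between genes per kilobase of merged exon. *Ccna2* was highest, with a median of 103.2 CPM per kilobase over 18 measurements (97 to 114.4), followed by *Cdk1* at 64.5 (60.5 to 69.6) and *Wee1* at 30.1 (27.8 to 32.3). *Cdc25a*, at 22.4 (20.5 to 24.6), and *Cdk2*, at 19.3 (16.2 to 20.9), were neighbours whose ranges overlapped. *Cdc25b* at 14.9 (13.4 to 16.1) and *Pkmyt1* at 12.4 (10.6 to 13.9) overlapped as well, and *Cdc25c* was lowest at 7.80 (7.30 to 8.71). *Cdc25a* thus had the highest transcript level per length of the phosphatases and *Wee1* the higher of the inhibitory kinases. With the longest protein-coding transcript as the length, *Ccna2* and *Cdk1* stayed first and second in order, *Wee1* moved to rank 5 behind *Cdk2* and *Cdc25a*, and *Cdc25b* became the lowest at 18.0 CPM per kilobase beside *Cdc25c* at 19.7.

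One question of the study was whether loss of Cyclin C or CDK8 changes *Cdc25a* RNA, and the genotype comparison puts it to the whole group. By edgeR's quasi-likelihood test 0 of the 8 genes were called (adjusted p under 0.05) against WT in either knockout, where 12.3% (*Ccnc* KO) and 4.31% (*Cdk8* KO) of all genes tested were. At an unadjusted p under 0.05 there was 1 of 8 in *Ccnc* KO cells (26.7% of all genes) and 0 of 8 in *Cdk8* KO cells (21.3%). With DESeq2 1 of the 8 genes, *Cdk2*, passed in *Ccnc* KO cells (14.2% of all genes) and 0 in *Cdk8* KO cells (9.26%). The fitted log2 fold changes, on the log2 CPM scale, ran from -0.09 (*Cdc25c*) to 0.17 (*Cdk2*) in *Ccnc* KO and from -0.11 (*Cdc25b*) to 0.08 (*Cdk2*) in *Cdk8* KO cells. The 95% intervals of all 8 genes lay between 0.855-fold and 1.21-fold in *Ccnc* KO and between 0.850-fold and 1.16-fold in *Cdk8* KO cells.

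Among the phosphatases, *Cdc25a* (ENSMUSG00000032477, chr9:109875579-109893895, plus strand), which opens both S phase and mitosis, was measured at 186.2 and 168.6 CPM in the WT replicates under DMSO. The *Ccnc* KO clones D1, G2 and H5 gave 178.4, 197.1 and 189.4 CPM. In the *Cdk8* multiplex the WT replicates gave 186.5 and 164.5 CPM and the clones B9, H4 and C8 gave 185.1, 179.7 and 195.3 CPM. No knockout group was separated from WT: D1 and the *Cdk8* KO clones B9 and H4 fell between the WT replicates, and the other clones lay above both. The fitted difference was 0.07 in *Ccnc* KO (SE 0.06, 95% interval -0.04 to 0.19, edgeR adjusted p = 0.429) and 0.07 in *Cdk8* KO cells (SE 0.05, -0.05 to 0.18, adjusted p = 0.481).

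*Cdc25b* (ENSMUSG00000027330, chr2:131186949-131198497, plus strand), which acts at the onset of mitosis, lay at 57.5 and 56.6 CPM in WT under DMSO in the *Ccnc* multiplex. It lay at 50.9, 57.5 and 54.2 CPM in clones D1, G2 and H5, and at 55.7, 55.8 and 50.1 CPM in clones B9, H4 and C8 beside 57.6 and 54.2 CPM in WT. The D1 and C8 clones gave the lowest values, and the groups overlapped in both multiplexes. The differences were -0.07 (SE 0.06, edgeR adjusted p = 0.487) and -0.11 (SE 0.06, adjusted p = 0.293). *Cdc25c* (ENSMUSG00000044201), which dephosphorylates CDK1 at mitotic entry, had the fewest counts and ranged from 35.9 to 39.8 CPM over all DMSO libraries, with differences of -0.09 (SE 0.06) and -0.04 (SE 0.06).

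Of the inhibitory kinases, *Wee1* (ENSMUSG00000031016, chr7:110122046-110143286, plus strand) was at 102.1 and 105.2 CPM in WT under DMSO and at 100.8, 95 and 100.9 CPM in D1, G2 and H5. In the *Cdk8* multiplex it was at 103.0 and 104.8 CPM in WT and at 97.6, 102.9 and 97.9 CPM in B9, H4 and C8. Every KO clone lay below both WT replicates under DMSO. Only for G2 did the gap to the lower WT replicate exceed 5.70%, the largest difference between repeats of a library. Groups without overlap under DMSO were found for 36.6% (*Ccnc* multiplex) and 30.6% (*Cdk8* multiplex) of all genes. Over both treatments the groups overlapped, and the fitted differences were -0.05 (95% interval -0.16 to 0.06) and -0.06 (-0.15 to 0.03).

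*Pkmyt1* (ENSMUSG00000023908, chr17:23726336-23736735, plus strand), the kinase that holds CDK1 inactive at membranes, varied most. In *Ccnc* KO clones it gave 47.3, 50.7 and 47.2 CPM under DMSO against 46.1 and 47.1 CPM in WT. In *Cdk8* KO clones it gave 47.0, 44.1 and 38.5 CPM against 44.6 and 44.8 CPM. The *Ccnc* KO values lay just above WT, in a multiplex where 36.6% of all genes had groups without overlap under DMSO. The *Cdk8* KO values lay on both sides of WT, with C8 lowest. The *Pkmyt1* genotype difference was 0.10 in *Ccnc* KO (SE 0.06, edgeR adjusted p = 0.319), which became -0.06 when WT replicate 2 under ATRi was included. Its 95% interval in *Cdk8* KO cells was -0.17 to 0.17.

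*Cdk2* (ENSMUSG00000025358, chr10:128697939-128705031, minus strand), the kinase of S phase entry, came closest to a call. In WT cells it gave 118.8 and 111.5 CPM under DMSO and 107.0 CPM under ATRi, in *Ccnc* KO clones 129.0, 129.9 and 122.3 CPM under DMSO, and 121.6, 126.5 and 119.1 CPM under ATRi. All 6 *Ccnc* KO libraries exceeded all 3 WT libraries used, a pattern shared by 14.4% of all genes tested in either direction (12.7% in the *Cdk8* multiplex). The difference was 0.17 (1.12-fold, SE 0.05, 95% interval 0.05 to 0.28) with an edgeR adjusted p of 0.0512, while DESeq2 gave 0.16 with an adjusted p of 0.0364. In the *Cdk8* multiplex WT gave 119.9 and 107.8 CPM and the clones B9, H4 and C8 gave 126.3, 120.9 and 120.4 CPM under DMSO. These stood above WT under DMSO, where 30.6% of all genes had groups without overlap, but not under both treatments. The gap between C8 at 120.4 CPM and the higher WT replicate at 119.9 CPM was narrow. The fitted difference was 0.08 (SE 0.06, 95% interval -0.06 to 0.21).

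*Cdk1* (ENSMUSG00000019942, chr10:69335146-69352938, minus strand), the mitotic kinase, lay at 320.5 and 298.3 CPM in WT under DMSO and at 299.3, 311.0 and 300.4 CPM in D1, G2 and H5. In the *Cdk8* multiplex it lay at 323.0 and 302.8 CPM in WT and at 306.2, 313.2 and 329.6 CPM in B9, H4 and C8. The groups overlapped in both multiplexes. The differences were -0.07 (95% interval -0.18 to 0.05) and -0.03 (-0.13 to 0.07). *Ccna2* (ENSMUSG00000027715, chr3:36564865-36572150, minus strand), the cyclin that binds both kinases, had 95% intervals of -0.12 to 0.11 in *Ccnc* KO and -0.09 to 0.06 in *Cdk8* KO cells. The plot of genotype effects gives all 16 estimates.

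**Figure D2:**
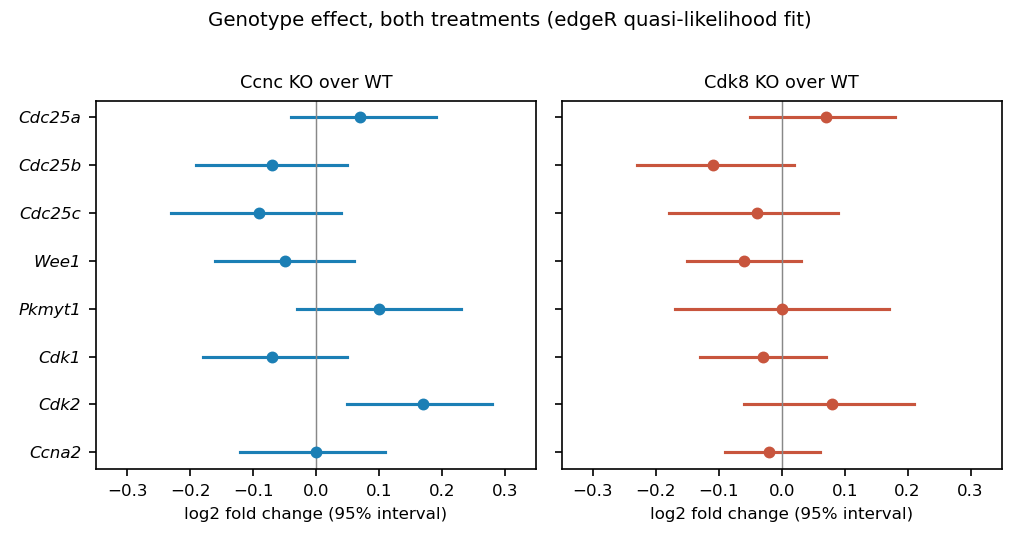
Fitted log2 fold change of knockout over WT (horizontal axes) for each gene, with 95% intervals as bars, in *Ccnc* KO (left) and *Cdk8* KO cells (right). The interval of *Cdk2* in *Ccnc* KO cells, 0.05 to 0.28, is the only one that does not contain 0, before adjustment over genes.

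Markers of primitive endoderm rose in the same comparisons. By edgeR 6 of 8 were called higher in *Ccnc* KO (12.3% of all genes, either direction) and 8 of 8 in *Cdk8* KO cells (4.31%). In the *Ccnc* multiplex their summed level under DMSO was 126.0 to 145.7 CPM in WT and 197.3 to 293.6 CPM in KO clones. In the *Cdk8* multiplex it was 125.6 to 142.9 CPM in WT and 356.5 to 485.9 CPM in KO clones. No marker of the list was at 0 counts throughout a group. Of 8 pluripotency markers, 3 were called lower in *Ccnc* KO (median -0.12) and 2 in *Cdk8* KO cells (median -0.27). By DESeq2 4 of the 8 were called lower and 1 higher in *Ccnc* KO cells, where it called 14.2% of all genes in either direction. In *Cdk8* KO cells 6 of 8 were called lower by DESeq2, which called 9.26% of all genes in either direction. Their summed level under DMSO was 4219 to 4611 CPM in *Ccnc* KO clones against 4719 to 5069 CPM in WT of that multiplex. In the *Cdk8* multiplex it was 3542 to 4332 CPM in KO clones against 4605 to 4975 CPM in WT. Of the trophectoderm markers 3 of 5 were called higher in *Ccnc* KO cells, and of the neuroectoderm markers 2 of 3 tested were called lower. Among those 3 trophectoderm markers *Elf5* stayed under 1 CPM in every group. In *Cdk8* KO cells edgeR called 0 of 4 tested in either list, with 2 in each at an unadjusted p under 0.05 (21.3% of all genes). There DESeq2 called 2 trophectoderm markers higher and 2 neuroectoderm markers lower (9.26% of all genes). Of the fibroblast markers edgeR called 0 in either knockout. At an unadjusted p under 0.05 there were 3 of 3 tested in *Ccnc* KO (26.7% of all genes) and 2 of 4 in *Cdk8* KO cells (21.3%). DESeq2 called 1 higher in each knockout (14.2% and 9.26% of all genes). Whether these markers bear on the levels of the CDK regulators was not tested. In bulk RNA fewer cells of a type and less RNA per cell cannot be told apart.

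The ATRi comparison asks whether inhibition of ATR moved these transcripts within 4 h. None of the 8 genes was called in either multiplex by edgeR without the clone as a block, where 1.11% (*Ccnc* multiplex) and 0.0855% (*Cdk8* multiplex) of genes were called. At an unadjusted p under 0.05 there were 0 of 8 in the *Ccnc* multiplex (16.2% of all genes) and 2 of 8 in the *Cdk8* multiplex (11.5%), namely *Ccna2* and *Wee1*. DESeq2 called 0 of 8 genes in the first (3.52% of all genes) and 1 of 8, *Ccna2*, in the second multiplex (2.04%). With the libraries of a clone paired as a replicate block, 0 of 8 genes were called beside *Ccnc* KO (2.43% of all genes) and 2 of 8, *Ccna2* and *Cdk2*, beside *Cdk8* KO clones, where 11.3% of all genes were.

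*Ccna2* had the largest difference toward ATRi. In the *Cdk8* multiplex it went from 407.4 CPM to 467.0 CPM in WT replicate 1, from 414.5 to 452.9 CPM in B9, from 411.3 to 448.5 CPM in H4 and from 418.2 to 462.7 CPM in C8. WT replicate 2 had 421.9 CPM under DMSO. All 4 ATRi libraries used lay above all 5 DMSO libraries, a pattern seen in 4.09% of all genes. The difference was 0.15 on the log2 scale (1.11-fold, SE 0.03, 95% interval 0.07 to 0.22), with an edgeR adjusted p of 0.155 without the block, 0.00435 with the replicate block and 0.00179 by DESeq2. In the *Ccnc* multiplex *Ccna2* went from 396.2 to 460.2 CPM in WT replicate 1, from 404.8 to 426.9 CPM in G2 and from 411.2 to 449.7 CPM in H5, but from 438.4 to 420.8 CPM in D1. The groups overlapped there, as they did for all 8 genes, while 4.6% of all genes had groups without overlap. The *Ccna2* difference was 0.09 (SE 0.05, 95% interval -0.02 to 0.20, edgeR adjusted p = 0.403).

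*Cdk2* was lower under ATRi in each of the 6 KO clones, by -0.26 (H4) to -0.04 on the log2 scale, and in WT replicate 1 of both multiplexes (-0.15 and -0.14). In the *Cdk8* KO clones it went from 126.3 to 121.0 CPM in B9, from 120.9 to 101.0 CPM in H4 and from 120.4 to 110.9 CPM in C8. The fitted difference in the *Cdk8* multiplex was -0.12 (SE 0.06, edgeR adjusted p = 0.482), or -0.14 (SE 0.04, adjusted p = 0.0197) with the replicate block. In the *Ccnc* multiplex it was -0.07 (95% interval -0.18 to 0.04), and -0.08 with an edgeR adjusted p of 0.437 with the block.

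*Wee1* was higher under ATRi in 5 of 6 KO clones. In the *Cdk8* KO clones it went from 97.6 to 104.2 CPM in B9, from 102.9 to 106.9 CPM in H4 and from 97.9 to 108.3 CPM in C8, so that the groups did not overlap, which held for 12.5% of all genes (18.3% within *Ccnc* KO clones). The fitted difference in the *Cdk8* multiplex was 0.10 (SE 0.04, 95% interval 0.01 to 0.18), with an edgeR adjusted p of 0.370, or 0.0641 with the block, so it did not pass. *Cdc25a* was lower under ATRi in 5 of 6 KO clones, with clone responses from -0.15 to 0.01, and fitted differences of -0.08 (95% interval -0.19 to 0.03) in the *Ccnc* and -0.04 (-0.15 to 0.07) in the *Cdk8* multiplex. *Pkmyt1* was lower in 5 of 6 KO clones and higher only in C8 (0.12), with fitted differences of -0.11 (SE 0.06) and -0.08 (SE 0.07) that did not pass. *Cdk1*, *Cdc25b* and *Cdc25c* had fitted differences between 0.00 and 0.11, with clones on both sides of 0.

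The ratio of *Wee1* to *Cdc25a* per kilobase of merged exon within each library sets an inhibitor of the kinases against an activator. It went on ATRi from 1.30 to 1.48 in WT replicate 1 of the *Cdk8* multiplex, from 1.24 to 1.35 in B9, from 1.34 to 1.45 in H4 and from 1.18 to 1.38 in C8. It went from 1.29 to 1.43 in WT replicate 1 of the *Ccnc* multiplex, from 1.13 to 1.40 in G2, from 1.25 to 1.39 in H5 and from 1.33 to 1.26 in D1. The direction was thus the same in every clone but D1, and no test was made of a ratio formed after the values were known. The size of the ratio, unlike its direction, depends on the length used. With the longest coding transcript the medians were 30.1 (*Wee1*) and 49.5 CPM per kilobase (*Cdc25a*), so that *Wee1* was the lower.

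**Figure D3:**
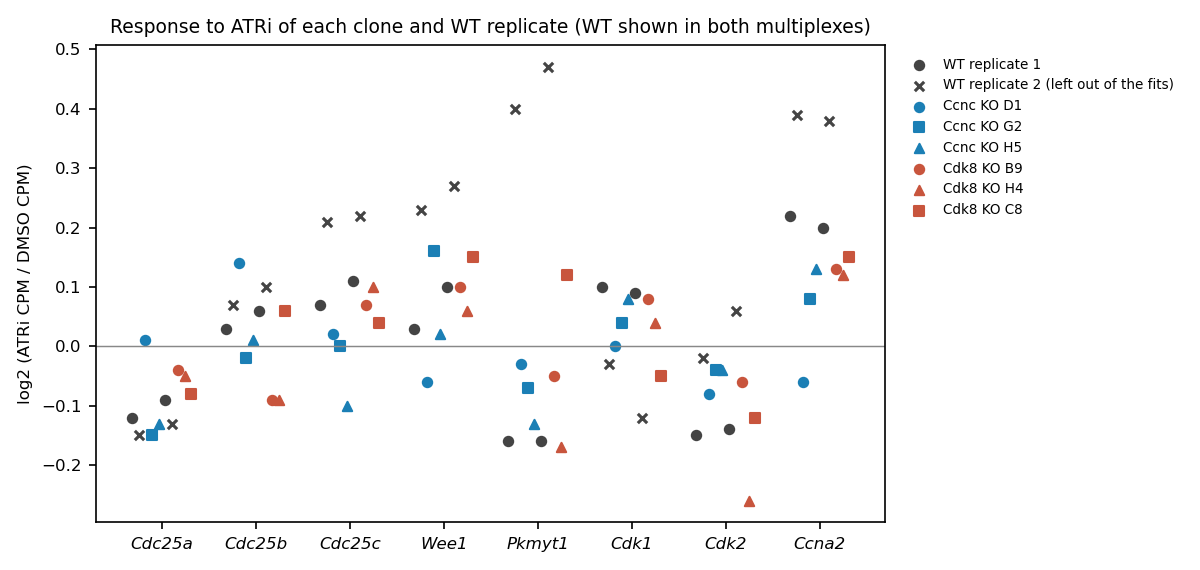
Log2 ratio of ATRi CPM to DMSO CPM (vertical axis) of each KO clone and WT replicate for the 8 genes, with WT drawn once for each multiplex. *Cdk2* lies below 0 in all 6 KO clones, *Ccna2* above 0 in 5 of 6, and WT replicate 2 (crosses) reaches 0.40 and 0.47 for *Pkmyt1*.

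Within the KO clones alone, which does not use the WT libraries, none of the 8 genes was called by edgeR in *Ccnc* KO (0.0894% of all genes) or in *Cdk8* KO clones (0.0% of all genes). At an unadjusted p under 0.05 there were 0 of 8 (12.6% of all genes) and 1 of 8 (5.94%), and DESeq2 called none of the 8 but 1.15% and 0.338% of all genes. With the clone as a block, *Ccna2* rose in *Cdk8* KO clones by 0.13 (SE 0.03, edgeR adjusted p = 0.0328), where 6.95% of all genes were called, and none of the 8 was called in *Ccnc* KO clones (0.65%). In WT the estimate rests on 1 ATRi library, whose spread is taken from the other groups. *Ccna2* differed there by 0.19 (SE 0.09) in the *Ccnc* and 0.17 (SE 0.07) in the *Cdk8* multiplex, with edgeR adjusted p-values of 0.914 and 1.00. None of the 8 genes was called in WT by edgeR (0.0108% of all genes in the first and 0.0% in the second multiplex), by DESeq2 (0.0646% and 0.0214%) or with the block (0.0431% and 0.63%). At an unadjusted p under 0.05 there were 0 of 8 (5.42% of all genes) and 1 of 8 (4.15%).

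Whether the response to ATRi differed between genotypes was tested by an interaction term in the fit. None of the 8 genes was called in either multiplex, and neither was any other gene (0.0% by edgeR and by DESeq2, with 2.13% and 1.36% at an unadjusted edgeR p under 0.05, among them 0 of the 8). With the clone as a block, 0.0% and 0.0214% of all genes and 0 of the 8 were called. For *Cdc25a* the response differed by -0.06 (95% interval -0.31 to 0.20) between *Ccnc* KO and WT, and by -0.05 (-0.30 to 0.20) between *Cdk8* KO and WT. The intervals over the 8 genes reached from 0.740-fold to 1.29-fold and from 0.755-fold to 1.40-fold. These are the extremes over the 8 genes, and a difference inside the interval of a gene is not excluded for that gene.

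**Figure D4:**
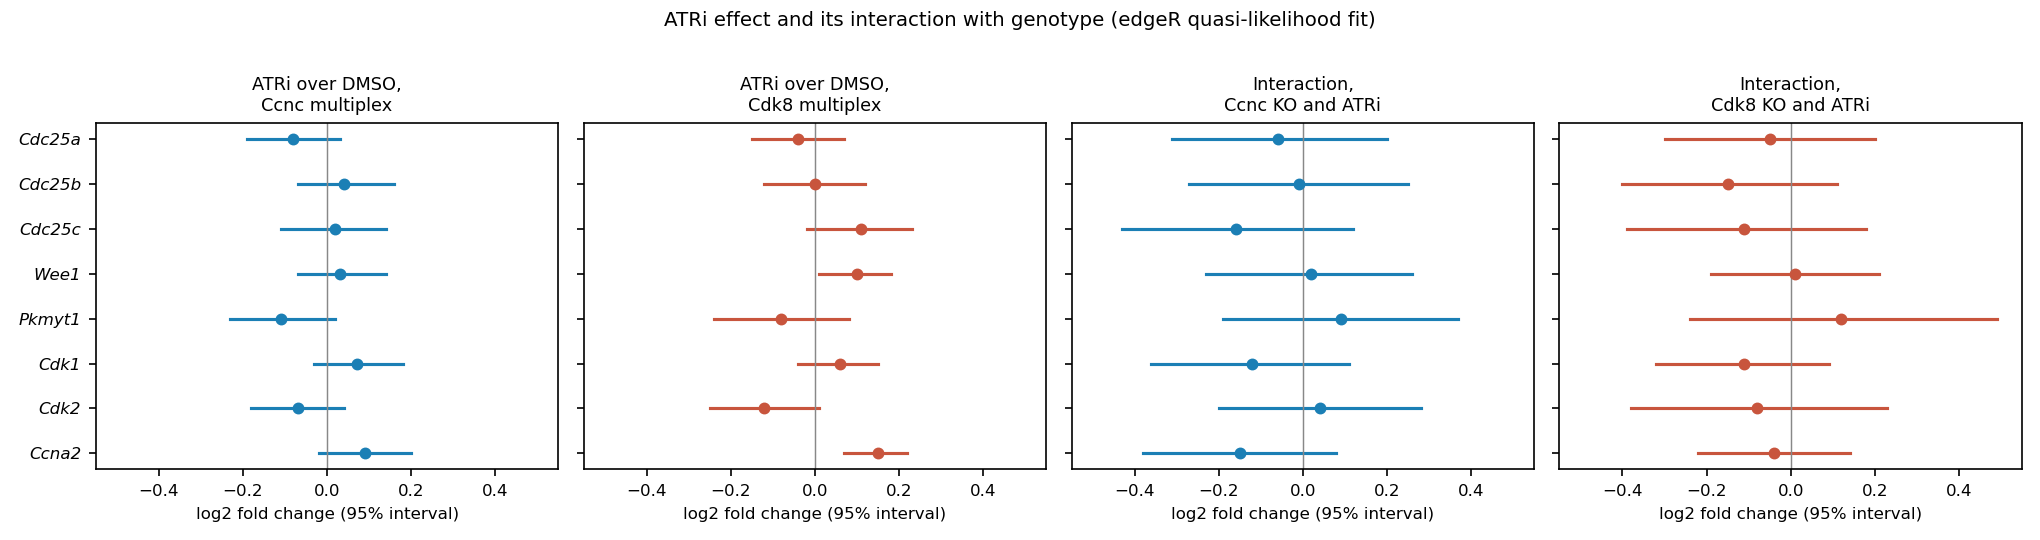
Fitted log2 fold change (horizontal axes) with 95% intervals as bars for ATRi over DMSO in the *Ccnc* and *Cdk8* multiplexes (left pair) and for the interaction of genotype and ATRi (right pair). The interval of *Ccna2* in the *Cdk8* multiplex, 0.07 to 0.22, lies above 0 before adjustment over genes, and all intervals of the interaction contain 0.

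WT replicate 2 under ATRi differed from all other libraries in most of these genes. *Ccna2* reached 544.9 CPM in the *Ccnc* and 549.1 CPM in the *Cdk8* multiplex, where the other 9 libraries ended at 460.2 and 467.0 CPM. *Pkmyt1* reached 62.3 and 62.2 CPM, against 50.7 and 47.0 CPM. *Wee1* reached 123.8 and 126.1 CPM, against 106.4 and 110.4 CPM. *Cdc25a*, at 151.6 and 150.4 CPM, and *Cdk1*, at 292.6 and 279.5 CPM, lay below the lowest of the others, 168.6 and 164.5 CPM and 298.3 and 302.8 CPM. In this library 21.5% of all genes of the *Ccnc* multiplex lay above all other libraries and 20.9% below. With it in the fits, no gene of the group was called in any comparison, and the *Ccna2* difference for ATRi was 0.15 in the *Ccnc* and 0.20 in the *Cdk8* multiplex (edgeR adjusted p = 0.397 and 0.267).

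The paths that lead to these enzymes were followed with 9 lists of 53 genes, of which 52 were tested: other cyclins, CDK-activating kinase, CDK inhibitors, checkpoint kinases, mitotic kinases, 14-3-3 proteins, ubiquitin ligase subunits, the Greatwall branch and regulators of cell cycle transcription. In *Ccnc* KO cells 7 were called higher and 3 lower, where 12.3% of all genes were called, with a median log2 fold change of 0.00 over the 52 and 0.003 over all genes. *E2f7*, a repressor of E2F targets, rose by 0.42 (SE 0.06, edgeR adjusted p = 0.000677), *Skp2*, which directs the CDK inhibitor p27 to degradation, by 0.51 (SE 0.13), *E2f1* by 0.28 and *Chek1*, the kinase between ATR and CDC25A, by 0.24 (adjusted p = 0.0360). *Ccne2*, a partner of CDK2, rose by 0.29, *Ccna1* by 0.71 and *Sfn*, a 14-3-3 protein, by 0.35. Levels were low for *Ccna1* (0.563 to 1.38 CPM) and *Skp2* (1.96 to 3.43 CPM) in the libraries used. *Rbl2*, a pocket protein, fell by 0.49, *Cdkn1c*, a CDK inhibitor, by 0.34 and *Fzr1*, an activator of the anaphase-promoting complex, by 0.18. Without WT replicate 1 none of these 10 calls was kept, without clone G2 2 were and without clone H5 or WT replicate 2 5 were, with each direction the same throughout. With the clone as a random effect 7 of 10 were kept, and limma's adjusted p-values were 0.0717 for *Ccna1*, 0.079 for *Ccne2* and 0.0529 for *Sfn*. With DMSO libraries only 3 of 10 were kept, and with WT replicate 2 under ATRi included 7 of 10.

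In *Cdk8* KO cells, where 4.31% of all genes were called, 2 of the 52 were called higher and 1 lower: *Ccne2* rose by 0.37 (SE 0.07, edgeR adjusted p = 0.0156) and *E2f7* by 0.31, and *Fzr1* fell by 0.24. These are 3 of the 10 genes called by edgeR in *Ccnc* KO cells, in comparisons that share WT libraries. DESeq2 kept these 3 and in all called 3 path genes higher and 6 lower in *Cdk8* KO cells (9.26% of all genes). Among them were *Skp2* (0.57, DESeq2 adjusted p = 0.0231) and *Rbl2* (-0.41, DESeq2 adjusted p = 0.00678), which also belong to the 10. None of the 3 edgeR calls was kept with the clone as a random effect, where limma gave adjusted p-values of 0.0943 (*Ccne2*), 0.0638 (*Fzr1*) and 0.0714 (*E2f7*). None was kept either with DMSO libraries only, without WT replicate 1 (edgeR adjusted p from 0.343 to 0.493), without WT replicate 2 or without clone C8, and *E2f7* was not called with WT replicate 2 under ATRi included. Of 15 transcripts of S phase, 8 were called higher in *Ccnc* KO cells (median 0.16), beside 12.3% of all genes, and 1 was called higher in *Cdk8* KO cells (median 0.09), beside 4.31%. The G2 and M list had medians of -0.01 in both.

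For ATRi edgeR without the block called 1 of the 52 path genes in the *Ccnc* multiplex (1.11% of all genes). It was *Cdc20*, an activator of the anaphase-promoting complex, which rose by 0.24 (SE 0.05, edgeR adjusted p = 0.0358). The call was lost when any 1 clone or WT replicate 1 was left out and when WT replicate 2 under ATRi was included (adjusted p from 0.0521 to 0.166), and it was kept without WT replicate 2 and with the block. DESeq2 called 3 path genes higher there, *Cdc20*, *Cdkn1c* and *Atm* (3.52% of all genes), and edgeR with the block called *Cdc20* and *Atm* (2.43%). In the *Cdk8* multiplex edgeR called none without the block, and 18 higher and 1 lower with it, where 11.3% of all genes were called. DESeq2 called 7 higher in that multiplex (2.04% of all genes). The G2 and M list had a median of 0.09 in the *Ccnc* and 0.15 in the *Cdk8* multiplex, against -0.009 and -0.007 over all genes. *Ccnb1*, the cyclin on which the study chose its time point, differed by 0.06 (95% interval -0.06 to 0.18) and 0.09 (-0.01 to 0.19), and was not called.

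The 250 bases upstream of the start were searched on both strands for motifs of cell cycle promoters in the 4 of the 8 genes matched in RefSeq's promoter table (GRCm38). The motifs were CHR (TTTGAA), the CCAAT box (CCAAT) and E2F sites (TTTCCCGC, TTTGGCGC, TTTCGCGC or TTTGCCGC), and no matches overlapped in these promoters. Of 32851 promoters in the table, 16% held a CHR, 33.8% a CCAAT box and 1.86% an E2F site. *Cdk1* held 2 CHR, 3 CCAAT boxes and 1 E2F site, *Cdc25a* 2 CCAAT boxes and 1 E2F site, *Cdk2* 1 CCAAT box and 1 E2F site, and *Cdc25b* 1 CCAAT box. *Cdc25a* (chr9:109875329-109875578, plus strand) and *Cdk1* (chr10:69352913-69353162, minus strand), the phosphatase of interest and its substrate, are printed with the motifs of either strand in capitals. A match is a description of letters and not evidence of binding.
Cdc25a promoter: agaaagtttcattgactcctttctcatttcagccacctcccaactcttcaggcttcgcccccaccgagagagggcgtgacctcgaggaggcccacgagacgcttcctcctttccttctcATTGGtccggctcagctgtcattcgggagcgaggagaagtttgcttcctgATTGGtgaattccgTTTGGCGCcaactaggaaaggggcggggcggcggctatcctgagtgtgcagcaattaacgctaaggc
Cdk1 promoter: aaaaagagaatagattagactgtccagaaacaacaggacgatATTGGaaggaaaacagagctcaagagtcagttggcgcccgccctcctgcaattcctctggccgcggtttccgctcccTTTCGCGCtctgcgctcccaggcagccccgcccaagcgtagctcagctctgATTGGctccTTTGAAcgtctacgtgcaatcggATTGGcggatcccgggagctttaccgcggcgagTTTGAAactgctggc

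The genes most like each of the 8 were sought among 8972 genes with a mean of at least 10 CPM, by the lower of the Pearson correlations of log2 CPM over the 9 libraries of each multiplex, which share their WT libraries. No other member of the group was among the nearest pair of any member. *Cdc25a* was nearest to *Sptlc2* (r = 0.88 and 0.89) and *Snx12* (0.88 and 0.84), *Wee1* to *Pkn2* (0.90 and 0.87) and *Ufl1* (0.87 and 0.87), and *Ccna2* to *Dmtf1* (0.90 and 0.97) and *Ddx59* (0.90 and 0.93). *Cdk2* was nearest to *St5* (0.89 and 0.88), *Cdk1* to *Hsph1* (0.90 and 0.85), *Pkmyt1* to *Fam234b* (0.88 and 0.84), *Cdc25b* to *Pheta1* (0.83 and 0.84) and *Cdc25c* to *Gdap2* (0.85 and 0.87). Within the group *Cdc25a* and *Wee1* gave r = -0.70 and -0.57, *Cdc25a* and *Cdk2* 0.65 and 0.67, and *Wee1* and *Ccna2* 0.36 and 0.78. These values describe the libraries and carry no test.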

How the data were processed

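Poly(A) RNA of mESCs was sequenced with strand kept. The authors trimmed reads with Trimmomatic 0.38, aligned them to GRCm38 with HISAT2 2.1.0 and deposited counts per gene and lane from featureCounts 2.0.1, which was set to ignore marked duplicates and to use strand. Their rlog tables were not used. The 2 lanes of each library were summed (40 columns, 20 libraries). Counts were tested within each multiplex with edgeR 4.0.16 (quasi-likelihood, TMM, filterByExpr, Benjamini-Hochberg adjustment), genotype beside treatment and treatment beside genotype. A gene was called at an adjusted p under 0.05. WT replicate 2 under ATRi was left out, which follows the published methods. Alternatives were DESeq2 1.42.0, RLE normalization, no filter, each replicate left out, the clone as a block or (limma 3.58.1) a random effect, DMSO only and library-total CPM. The length of the longest coding transcript was added after seeing the data. The fits were run on simulated data with 200 changed genes. No outcome of that run is given here, so it is no evidence on how well small differences between clones are detected.

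The 8 genes and all lists were chosen with earlier results of these data known. Genes named are the 8, *Ccnc*, *Cdk8*, *Ccnb1*, at most 3 called genes per path list and comparison, and the nearest by correlation. *Clspn* was misspelt when the lists were written and was corrected. The libraries of a clone pair by the clone named in their labels. Over genes their deviations correlated at 0.219, 0.022 and 0.241 (D1, G2, H5) and 0.640, 0.713 and 0.242 (B9, H4, C8). For G2 the values do not show the pairing. Its DMSO library correlated more with D1 under ATRi (0.093), and its ATRi library more with H5 under DMSO (0.127). P-values of fits without the clone count the DMSO and ATRi libraries of a clone or WT replicate as separate. The spread they use mixes that within clones with that between clones and replicates. CPM precision covers counting error and the spread only.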

Additional observations from a re-analysis of the deposited data

Results flagged for a closer look

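The library of WT replicate 2 under ATRi, which the comparisons do not use, lay above the other 9 libraries of both multiplexes for 3 of the 8 genes. These were *Ccna2* (544.9 and 549.1 CPM in the *Ccnc* and *Cdk8* multiplex), *Wee1* (123.8 and 126.1 CPM) and *Pkmyt1* (62.3 and 62.2 CPM). *Cdc25a* (151.6 and 150.4 CPM) and *Cdk1* (292.6 and 279.5 CPM) lay below the other 9 in both. Of all genes tested, 21.5% and 20.8% lay above the other libraries and 20.9% and 24.2% below. Both measurements are of the same library, so they are not separate samples, and the difference from the other libraries was not tested.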

How the results depend on the processing

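The 40 effects of the 8 genes that were followed over alternatives gave 400 values, of which 365 kept their direction and their side of the threshold, 30 changed sign, none to a value beyond 0.06 in size, and 5 were newly called. DESeq2 called 1 gene for *Ccnc* genotype and 1 for ATRi in the *Cdk8* multiplex, and the replicate block called 2 for the latter and 1 within *Cdk8* KO clones, and it changed no other call of the 8 genes. With WT replicate 2 under ATRi, signs changed for *Pkmyt1* (-0.06 for *Ccnc* genotype, 0.02 and 0.05 for ATRi in the *Ccnc* and *Cdk8* multiplex), *Cdk1* (0.03, *Cdk8* genotype) and the *Cdc25a* interaction (0.04 and 0.05). With DMSO libraries only they changed for *Ccna2* (0.06, *Ccnc* genotype) and *Cdk1* (0.01, *Cdk8* genotype), with the clone as a random effect for *Pkmyt1* (0.00069, *Cdk8* genotype), and with the block for the *Cdc25a* interaction (0.02 and 0.04), *Cdc25c* (-0.01, ATRi, *Ccnc* multiplex) and *Cdc25b* (-0.02, ATRi, *Cdk8* multiplex). With 1 replicate left out, *Ccnc* genotype values ran from -0.02 to 0.02 (*Ccna2*), -0.14 to 0.01 (*Cdc25c*) and -0.11 to 0.03 (*Cdk1*), and *Cdk8* genotype values from -0.09 to 0.06 (*Cdc25c*), -0.06 to 0.05 (*Cdk1*) and -0.06 to 0.04 (*Pkmyt1*). ATRi values ran from -0.02 to 0.05 (*Cdc25c*) and -0.0049 to 0.06 (*Wee1*) in the *Ccnc* and from -0.03 to 0.03 (*Cdc25b*) in the *Cdk8* multiplex, and *Cdc25a* interactions from -0.11 to 0.03 and -0.05 to 0.04. The causes were not tested.

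Counts of all called genes moved with the settings, for *Ccnc* genotype from 289 (without WT replicate 1) to 2968 (no filter) and for *Cdk8* genotype from 1 (without WT replicate 1) to 1733 (DESeq2), and for ATRi from 21 to 845 and from 0 to 2107 (replicate block). Without WT replicate 1 the interaction and the WT response could not be fitted. CPM by library total moved 15 of 16 group means by less than 1 SD. The single WT library under ATRi limits the interaction and the WT response.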
